A study of Mus musculus with 5 samples.

Results

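The lateral central amygdala (CeL) neurons described here are inhibitory neurons that carry transcripts of somatostatin (Sst) and of the transcription factor Ebf1. They were selected on measured transcripts, in single-nucleus RNA sequencing of the mouse central amygdala (CeA), and 169 of the 6020 nuclei with a Gad1 or Gad2 UMI met the thresholds. A UMI (unique molecular identifier) stands for one captured RNA molecule, Gad1 and Gad2 encode the enzymes of GABA synthesis, and the 6020 Gad nuclei came from 7161 nuclei with 500 to 8000 genes and less than 0.8% mitochondrial UMIs. Per 10000 UMIs of a nucleus, the thresholds were at least 1 for Sst and 8 for Ebf1, less than 1.5 for Tac1, less than 6 for the sum of Dnah5, Vipr2, Tac2 and Nts, less than 15 for Il1rapl2, less than 5 for Rarb and less than 8 for Foxp2. The 8 genes with an upper limit mark other CeA, striatal or intercalated neurons, so low values of them and high values of Sst and Ebf1 are properties of the selection and not results. The position of a nucleus in the tissue was not measured here, and the assignment to CeL rests on the markers.

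The fed group held 3 libraries and the fasted group 2, each made from tissue pooled from a male and a female mouse. Fed replicates 1 and 2 and both fasted replicates came from mice of 8 weeks labelled C57BL6 (the study's methods give C57BL/6NRj for wild-type animals), and the fasted mice had been without food for 20 hours (replicate 1) or 21 hours (replicate 2). Fed replicate 3 came from Htr2a-Cre mice of 12 weeks in which a Cre-dependent virus expressed mCherry, a marker limited to cells with activity of the Htr2a-Cre transgene and reached by the virus. No fasted library carried this genotype or this age, and the p-values measure the spread between pooled libraries.

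Somatostatin neurons are among the main classes of the CeL, next to neurons that express protein kinase C delta (Prkcd). Both are GABAergic, inhibit each other and send axons to the brainstem and other parts of the extended amygdala, and somatostatin neurons are known for roles in conditioned fear, reward and feeding. Somatostatin is a peptide that acts on inhibitory G protein-coupled receptors, and Ebf1 belongs to a small family of transcription factors that shape the differentiation of striatal and other neurons.

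The Sst gene (ENSMUSG00000004366) lies on the minus strand of chromosome 16 (GRCm39, 23707321 to 23711733), and Ebf1 (ENSMUSG00000057098) on the plus strand of chromosome 11 (44508138 to 44898918). Since Sst defines these neurons, its promoter is shown with the cyclic AMP response element TGACGTCA in capitals, the palindrome through which CREB acts on this gene. The sequence is the RefSeq promoter window of GRCm38.p6, chr16:23890795-23891094 on the minus strand, from 250 bases before the gene start to 50 after it.
Sst: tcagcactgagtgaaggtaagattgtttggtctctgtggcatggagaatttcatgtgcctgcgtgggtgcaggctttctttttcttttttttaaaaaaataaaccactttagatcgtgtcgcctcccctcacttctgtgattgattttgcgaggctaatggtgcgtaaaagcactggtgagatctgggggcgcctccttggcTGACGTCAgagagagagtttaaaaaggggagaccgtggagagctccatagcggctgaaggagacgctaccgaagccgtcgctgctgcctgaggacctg
The element starts 48 bases before the gene start, and 1.88% of the 27025 promoter windows of that table held the same letters on either strand (3.64% of the 4748 windows of genes tested in these neurons). For Ebf1, the letters CCCNNGGG (an inverted repeat resembling the core bound by EBF proteins) were searched in the promoters of the 20 genes that led the profile described next. Of the 16 with a window, Kit and Pdyn held a match (12.5%), beside 13.4% of all windows and 18.9% of those of genes tested in these neurons, so the share was no higher than the background. Pdyn, the gene of the opioid precursor prodynorphin, held 2 matches, which are in capitals in its window (GRCm38.p6, chr2:129699889-129700188, minus strand).
Pdyn: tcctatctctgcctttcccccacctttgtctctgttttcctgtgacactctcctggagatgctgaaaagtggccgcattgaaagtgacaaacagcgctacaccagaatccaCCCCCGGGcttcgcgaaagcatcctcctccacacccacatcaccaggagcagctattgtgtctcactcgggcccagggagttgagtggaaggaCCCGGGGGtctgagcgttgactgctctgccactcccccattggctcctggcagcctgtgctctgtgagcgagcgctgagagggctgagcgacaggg

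The fed libraries held 21, 34 and 28 Sst/Ebf1 neurons (replicates 1 to 3) and the fasted libraries 45 and 41. As a share of the Gad nuclei this was 2.24, 3.94 and 2.12% in the fed libraries and 3.30 and 2.66% in the fasted ones, so the groups overlapped. The means were 2.77% ± 1.02 (SD, n = 3) and 2.98% ± 0.452 (SD, n = 2), with a two-sided exact permutation p of 0.9, in a design that cannot go below p = 0.1. Summed over the neurons of a library, the counts were 196375, 604788 and 387390 in the fed and 283410 and 764988 in the fasted libraries. The median neuron held 9419, 16756.5 and 13595 UMIs in the fed libraries and 6286 and 17675 in the fasted ones, and fasted replicate 1 was the shallowest. None of the 169 was among the 70 nuclei called as doublets, and no barcode of theirs occurred in more than 1 library.

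The threshold on Sst lies close to what a single UMI is worth. The neurons nearest above it had 1.01 to 1.14 Sst UMIs per 10000 in the 5 libraries and the nuclei nearest below 0.931 to 0.990, while for Ebf1 the nearest values were 8.06 to 8.83 above and 5.62 to 7.97 below. A single Sst UMI qualified 7, 2 and 0 neurons in the fed libraries and 18 and 2 in the fasted ones. Glial nuclei, which do not express Sst, had an Sst UMI in 1.47, 8.57 and 3.92% of cases in the fed libraries and in 10.3 and 13.1% in the fasted ones, at a median depth of 2174.5 to 4041 UMIs. The exact 95% binomial intervals, which cover counting error only, were 0.0372 to 7.92%, 4.51 to 14.5% and 0.478 to 13.5% in the fed and 4.84 to 18.7% and 7.34 to 21.0% in the fasted libraries. The interval of fed replicate 2 holds both fasted shares. The source of Sst UMIs in glia was not tested, and the main comparisons of feeding states were repeated with stricter Sst thresholds.

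Markers of interneurons, excitatory neurons, microglia and endothelium were at or near 0, while some of other CeA neurons and of glia were not. Levels are CPM (the share of a gene among the UMIs, scaled to a common total) for the summed neurons of a library and are not scaled to gene length. Of the markers of cortical or striatal interneurons, which also hold Sst cells, Pvalb was at 0 in every library, and the 6 genes together reached 0, 3.31 and 5.16 CPM in the fed and 3.53 and 13.1 CPM in the fasted libraries, against a fed mean of 44.7 CPM in the other Gad nuclei. The most abundant of them, Nkx2-1, averaged 0.860 CPM, and Lhx6, which with Nkx2-1 specifies interneurons born in the medial ganglionic eminence, had 1.65 CPM in fed replicate 2, 2.61 in fasted replicate 2 and 0 in the other 3 libraries. The 4 excitatory markers summed to 0, 0 and 5.16 CPM in the fed and 3.53 and 1.31 in the fasted libraries, with Neurod2 at 0 throughout.

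All 4 markers of the Prkcd type were low in the fed neurons, namely Prkcd, the calcitonin receptor-like receptor gene Calcrl, the cadherin gene Cdh9 and the dopamine D2 receptor gene Drd2. Their sum was 45.8, 43.0 and 41.3 CPM in the fed and 28.2 and 41.8 CPM in the fasted libraries, against a fed mean of 332 CPM in the other Gad nuclei, and Cdh9 was the most abundant. The 7 markers of the medial division (CeM), of which Tac1 and Il1rapl2 were part of the selection, summed to 66.2, 121 and 160 CPM in the fed and 169 and 224 CPM in the fasted libraries. The most abundant of these was Cacna1g, a T-type calcium channel gene, with 20.4, 61.2 and 43.9 CPM in the fed and 106 and 56.2 CPM in the fasted libraries, values that overlap. Both lists were below the other Gad nuclei in the fed libraries, where the CeM list averaged 650 CPM. Of this, Il1rapl2, held low by the selection, made up 347 CPM, beside 25.2 in the fed Sst/Ebf1 neurons. The gap in the CeM list is thus in large part a property of the selection. Some genes went against the CeL label. The study also lists Ebf1, on which the neurons were selected, with a CeM cluster. For Cacna1g, the fed mean was 41.8 CPM in the Sst/Ebf1 neurons beside 9.05 in the Nts/Tac2 nuclei described below. Relative to the other Gad nuclei, it reached 0.185, 0.723 and 0.372 times their level in the fed and 0.958 and 0.755 times in the fasted libraries. It was detected in 41.4% of the Sst/Ebf1 neurons, 10.1% of the Nts/Tac2 nuclei and 47.3% of the other Gad nuclei. The 5 markers of the Nts/Tac2 type, 4 of which were part of the selection, summed to 204, 116 and 142 CPM in the fed and 95.3 and 139.9 CPM in the fasted libraries, against a fed mean of 119 CPM in the other Gad nuclei, with Dnah5 in the lead (93.6 ± 44.2 CPM).

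Among the glial lists, that of astrocytes summed to 491 ± 30.0 CPM in the fed libraries (SD, n = 3) beside 228 in the other Gad nuclei, of which the glutamate transporter gene Slc1a2 alone made up 472 ± 16.8, more than 2 times its level in the other Gad nuclei of every fed library. Its other 4 genes, Slc1a3, Aqp4, Gja1 and Aldoc, each averaged at most 11.6 CPM. The oligodendrocyte list summed to 194, 129 and 121 CPM in the fed and 219 and 199 CPM in the fasted libraries, with Mbp in the lead, and was higher in both fasted libraries than in any fed one. Oligodendrocyte precursor genes (fed mean 18.2 CPM, Pdgfra at 0), microglial genes (4.28 CPM) and endothelial genes (2.27 CPM, Cldn5 and Flt1 at 0) were scarce.

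In the fed libraries the profile of Sst/Ebf1 neurons was led by Drd3, Sema6d, Cpa6, Syndig1l and Gulp1. The genes described next were ranked by the smallest of the 3 fed ratios between these neurons and all other Gad nuclei, outside the 12 genes of the selection, so their fed values are a description with no test. Drd3, the gene of the dopamine D3 receptor (ENSMUSG00000022705, chromosome 16, 43574389 to 43643295 in GRCm39), led the list. It had 234, 112 and 178 CPM in the neurons of fed replicates 1, 2 and 3, which is 18.1, 8.03 and 13.4 times the level in the other Gad nuclei of the same library. The fasted libraries, which were not used for the ranking, gave 116 and 162 CPM, or 6.53 and 10.7 times the other nuclei, so the neurons stood above the rest in each of the 5 libraries.

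Sema6d, a transmembrane semaphorin that guides axons (chromosome 2, 123931715 to 124509928), had 4196, 4825 and 3893 CPM in the fed and 3306 and 3225 CPM in the fasted libraries. The ratios to the other Gad nuclei ranged from 7.31 to 8.27 in the fed and from 6.05 to 6.08 in the fasted libraries. Adra1b, which encodes the alpha-1B adrenergic receptor, had 35.6, 56.2 and 87.8 CPM in the fed libraries, between 5.99 and 13.9 times the other nuclei. The calcium-activated chloride channel gene Ano2 and the cation channel gene Trpc5 averaged 513 ± 148 and 1296 ± 259 CPM (SD, n = 3 fed libraries), at ratios of 5.79 to 8.16 and 5.30 to 7.37. Both channel genes were thus several times higher in every fed library.

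Adhesion and guidance were represented further by Sema3a, a secreted semaphorin, and Cntn4, a contactin of axonal membranes. Sema3a averaged 555 ± 176 CPM and Cntn4 2172 ± 696 CPM, at 4.65 to 7.43 and 4.59 to 6.06 times the other Gad nuclei. Gulp1, an adaptor of engulfment receptors, Unc13c, a priming factor of synaptic vesicles, and Pfkfb3, a regulator of glycolysis, had ratios of 6.21 to 6.78, 4.40 to 4.94 and 4.84 to 5.48. Galnt18 and Galnt14 encode enzymes that start O-linked glycosylation, and their ratios were 4.50 to 5.07 and 4.12 to 5.02. The receptor tyrosine kinase gene Kit, the hyaluronan receptor gene Cd44 and the carboxypeptidase gene Cpa6 were measured at lower levels, with fed means of 49.2 ± 7.58, 54.2 ± 19.1 and 50.8 ± 9.66 CPM. Syndig1l, Bend7, 1810020O05Rik and Cdkl4 completed the 20, with ratios of at least 3.84 in every fed library.

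**Figure D1:**
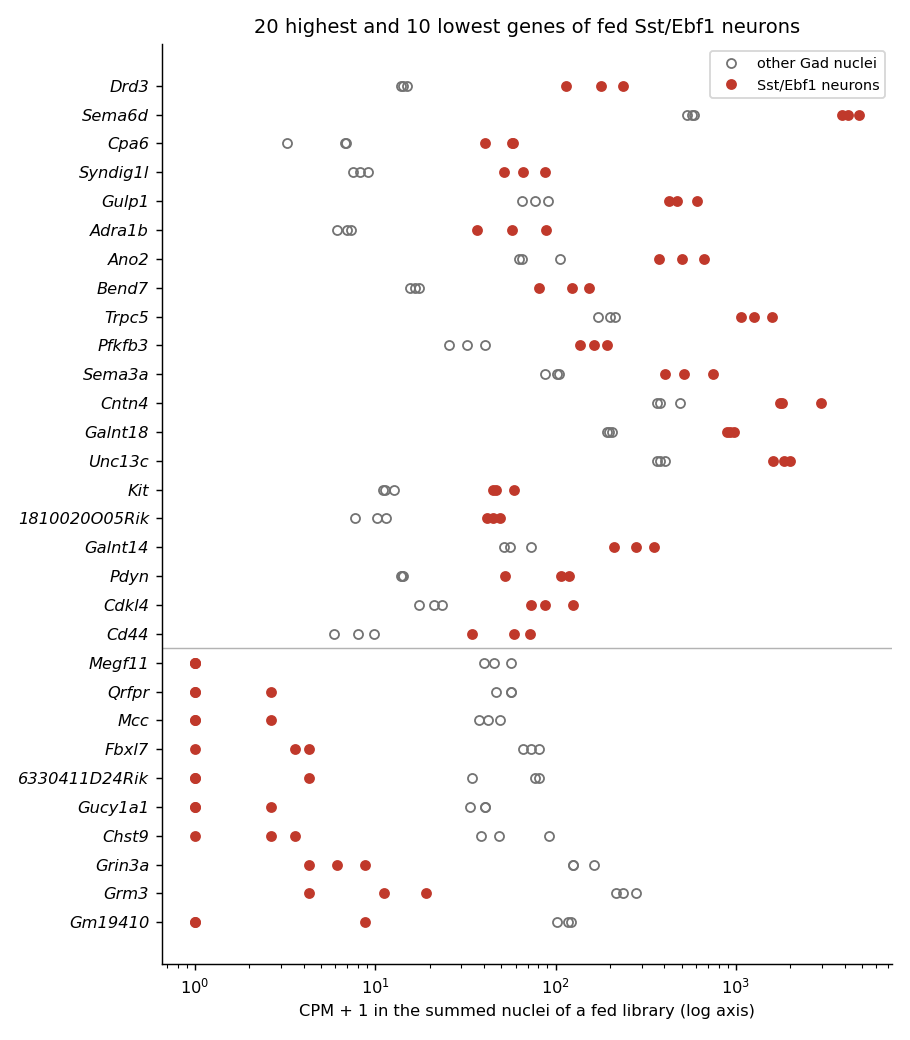
Levels (CPM + 1, log axis) of the 20 genes with the highest and, below the line, the 10 with the lowest ratio of Sst/Ebf1 neurons to other Gad nuclei, with a point for each of the 3 fed libraries; a value of 1 stands for 0 UMIs. Filled and open points do not overlap for any of these genes, a separation that the choice of the genes favours.

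All 20 genes were more than 2 times higher than in the other Gad nuclei in both fasted libraries as well. For 6 of them both fasted ratios lay below every fed ratio, in a list that was ranked on the fed libraries and is for that reason favoured there. Across the table, 91 of the 4079 genes with at least 30 CPM in the neurons of each fed library exceeded a ratio of 2 in every fed library, and 73 of the 91 did so in all 5. On the low side, 229 of the 4843 genes with at least 30 CPM in the other Gad nuclei of each fed library were below 0.5 in every fed library, and 178 of them in all 5. At an equal depth of 4000 UMIs per nucleus, the mean of the 3 fed ratios was lowest for Kit, at 3.54. The thinned ratio of Kit was 0.817 in 1 fed library, whereas each of the other 19 genes stayed above 2 in all 3.

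Among opioid peptide genes, Pdyn was higher and Penk lower than in the other fed Gad nuclei. Pdyn (chromosome 2, 129528469 to 129541945) had 117, 51.3 and 106 CPM in the fed and 70.6 and 36.6 CPM in the fasted libraries, against a mean of 13.1 CPM in the other fed Gad nuclei. The Nts/Tac2 nuclei had 60.0, 64.6 and 72.3 CPM in the fed and 64.0 and 61.1 CPM in the fasted libraries, which overlaps with the Sst/Ebf1 neurons. Penk, the proenkephalin gene, was at 0, 11.6 and 25.8 CPM in the fed and 45.9 and 27.5 CPM in the fasted libraries, against a fed mean of 126 CPM in the other nuclei. The fed and fasted values of Pdyn overlap, while those of Penk do not, with a log2 fasted to fed ratio of 1.24 ± 0.614 (SE) that did not pass (edgeR quasi-likelihood test, adjusted p = 1.00). Of the other peptide genes, Npy and Pnoc had 0 UMIs in at least 3 of the 5 libraries and at most 6.54 and 5.09 CPM, and Crh, the corticotropin-releasing hormone gene, was at 7.74 CPM in fed replicate 3, at 5.23 CPM in fasted replicate 2 and at 0 elsewhere.

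The receptors through which these neurons could sense their own peptide were close to the limit of detection. Sstr1 had no UMI in any of the 169 neurons, and Sstr2, Sstr3, Sstr4 and Sstr5 reached at most 5.16, 2.58, 1.31 and 5.09 CPM in any library. These genes were scarce in the other Gad nuclei as well, with fed means of 0.855, 4.27, 1.66, 0.891 and 1.33 CPM for Sstr1 to Sstr5 in order. In fasted replicate 2, which held the most UMIs, the absence of Sstr1 from 41 neurons allows a share with a UMI of up to 7.32%. Ghsr, the ghrelin receptor gene, had no UMI in these neurons and was detected in 1 of the 5851 other Gad nuclei, so it was hardly detected in any of the Gad nuclei. In this and the following lists, ratios above 2 were counted for genes with at least 30 CPM in the Sst/Ebf1 neurons of each fed library. Ratios below 0.5 were counted for genes with at least 30 CPM in the other Gad nuclei of each. Of the 36 peptide and hormone receptor genes, 2 reached 30 CPM in the neurons, and none exceeded a ratio of 2 in every fed library. Oprm1, Adcyap1r1 and Calcrl were below 0.5 in each. Genes under these limits, such as Sstr1, were not counted.

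Of the 28 monoamine and acetylcholine receptor genes, 8 reached 30 CPM in the neurons of each fed library. Among these, Htr2c, Drd3 and Adra1b exceeded a ratio of 2 in every fed library. Of the genes with 30 CPM in the other Gad nuclei, Htr1f, Htr7, Drd2, Chrm2 and Chrm3 were below 0.5. Htr3a, Drd5, Adra1d and Chrm5 had no UMI in the Sst/Ebf1 neurons and were not counted. Htr2c, the serotonin 2C receptor gene (chromosome X, 145745509 to 145980286), had 886, 1389 and 816 CPM in the fed and 755 and 881 CPM in the fasted libraries, against a mean of 331 CPM in the other fed Gad nuclei. Its ratios were 2.31 to 3.66 in the fed and 2.51 to 2.71 in the fasted libraries. The muscarinic receptor gene Chrm3 averaged 95.8 ± 19.0 CPM beside 341 in the other nuclei. Among 38 transcription factor genes of subpallial neurons, Tshz2 (2524 ± 178 CPM, ratios of 3.11 to 3.86) and Dlx6 (46.4 ± 7.25 CPM, 2.37 to 2.79) were above 2, and 5 were below 0.5, among them Sox6, Zeb2, Nfia and Nfib.

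Adhesion, glutamate and GABA genes held more low than high ratios, as did the whole table. Of 43 guidance and adhesion genes, 15 were below 0.5 in every fed library, among them the Slit receptor gene Robo1 (249 ± 69.2 CPM beside 1705) and the cadherin gene Cdh13 (35.6 ± 38.6 beside 607), and only Sema3a, Sema6d and the semaphorin receptor gene Nrp1 were above 2. Of 24 glutamate receptor genes, 6 were below 0.5, among them Grin3a, Grik1, Grik3, Grik4 and Grm3, and none was above 2. Of 22 genes of the GABA synapse, 3 were below 0.5, among them the receptor subunit gene Gabrg3, and none was above 2. The 36 genes of voltage-gated channels and related proteins had 1 member below 0.5, Kcnip1, and none above 2.

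The 10 genes with the lowest ratios were Megf11, Qrfpr, Mcc, Fbxl7, 6330411D24Rik, Gucy1a1, Chst9, Grin3a, Grm3 and Gm19410. Megf11 had no UMI in the fed neurons (fed mean of 46.4 CPM in the other Gad nuclei), and Qrfpr, a receptor of a hypothalamic peptide, had 1 UMI in fed replicate 2 alone. Grm3, the gene of metabotropic glutamate receptor 3, had 10.2, 3.31 and 18.1 CPM beside a mean of 242, and Grin3a, an NMDA receptor subunit gene, had 5.09, 3.31 and 7.74 CPM beside 137. Summed, the 10 genes reached 1.87, 2.1 and 4.68% of their level in the other Gad nuclei in the fed libraries that chose them, and 17.4 and 10.3% in fasted replicates 1 and 2.

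Nuclei were then compared one by one for the 20 leading genes, at 4000 UMIs each. The genes were chosen on the fed Sst/Ebf1 neurons against the other fed Gad nuclei, so the fed counts are a description and only the fasted libraries are independent of the choice. Of 163 Sst/Ebf1 neurons that reached this depth, 117 had a UMI of at least 10 of the 20 genes and 4 of fewer than 5. The median number was 11, 11 and 10.5 in the fed and 10 and 10 in the fasted libraries. Nuclei of the Nts/Tac2 gate (at least 6 for the sum of Dnah5, Vipr2, Tac2 and Nts) had medians of 6 or 7, those with Ebf1 but below the Sst threshold 4 to 5, and those with Sst but below the Ebf1 threshold 3 to 4.5. The other Gad nuclei had a median of 3 in each library. At least 10 leading genes were found in 25, 10 and 8.60% of the fed and 6.90 and 9.91% of the fasted Ebf1 nuclei below the Sst threshold, beside 63.4 to 85.7% of the Sst/Ebf1 neurons and 1.71 to 2.63% of all other Gad nuclei.

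**Figure D2:**
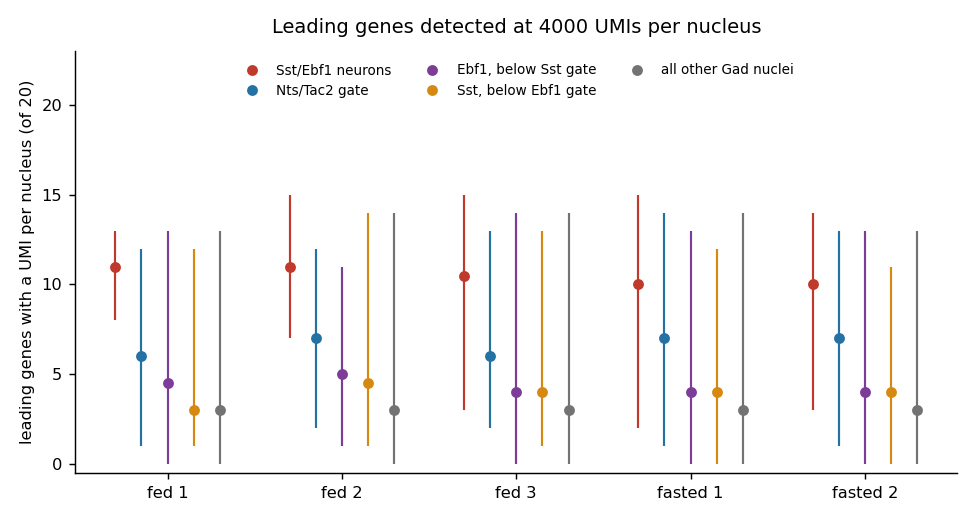
Number of the 20 leading genes with a UMI per nucleus (points, medians; lines, lowest to highest nucleus) in each library, after thinning to 4000 UMIs, for Sst/Ebf1 neurons and 4 other sets of Gad nuclei. Medians of the Sst/Ebf1 neurons are 10 to 11 in every library and those of the other sets 3 to 7, a gap that the choice of the genes on the fed libraries favours there and that the fasted libraries show independently of it.

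The Nts/Tac2 nuclei, whose medians came nearest, shared several leading genes and lacked others. In 15 of the 20, every fed library of Sst/Ebf1 neurons lay above every fed library of the Nts/Tac2 nuclei, and 14 of these did so in the fasted libraries as well. The exception was Drd3, with 47.7, 84.3 and 76.1 CPM in the fed and 128 and 122 CPM in the fasted Nts/Tac2 nuclei, beside 116 and 162 in the fasted Sst/Ebf1 neurons. The widest gaps were in Adra1b (59.9 ± 26.3 CPM beside 3.02), Sema3a (555 ± 176 beside 56.0) and Galnt14 (279 ± 70.9 beside 16.9), at ratios within a library of at least 10.4, 9.10 and 11.8. Pfkfb3, at 163 ± 27.7 beside 122 CPM, and Kit, at 49.2 ± 7.58 beside 40.1, were close in the 2 sets. Cpa6, Ano2, Kit, Pdyn and Cd44 overlapped between them. Alk, a receptor tyrosine kinase gene, was lower in the Sst/Ebf1 neurons, with 81.5, 31.4 and 106 CPM in the fed libraries beside a mean of 1280 in the Nts/Tac2 nuclei. Nuclei that met the Sst threshold but not the limit on Tac1 were few, 21 in all libraries. Their fed means of Adra1b, Sema3a and Galnt14 were 13.8, 309 and 6.90 CPM. For Sema3a their fed libraries (215 to 483 CPM) overlapped with the Sst/Ebf1 neurons (403 to 747).

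Htr2a itself was detected in fed replicate 3 (43.9 CPM) and was scarce in the other libraries of Sst/Ebf1 neurons, with 0 CPM in fed replicates 1 and 2 and 3.53 and 1.31 CPM in the fasted ones. Fed replicate 3 was the highest library of the Nts/Tac2 nuclei as well (0, 0 and 35.2 CPM in the fed and 0 and 7.08 CPM in the fasted) and of the other Gad nuclei (8.87, 12.4 and 18.5 against 9.31 and 12.9 CPM). Fed replicate 3 is also the library that carries the viral marker. There, 17 of the 28 Sst/Ebf1 neurons had an mCherry UMI (60.7%, exact 95% interval 40.6 to 78.5%), beside 27.3% of the Nts/Tac2 nuclei, 31.5% of all other Gad nuclei and 7.84% of glial nuclei, which should lack it. After thinning to 4000 UMIs the shares were 42.9, 16.9, 20.7 and 8.00% in that order. One library gives no spread between animals, so these shares have no test.

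Next, the Sst/Ebf1 neurons of fed and fasted mice were compared. The last part of the study asks whether CeA populations change their transcripts with fasting. Of 5945 genes tested 1 passed, Fth1, the gene of the heavy chain of the iron store ferritin, which rose with fasting, so that 0.0168% of genes were called (edgeR quasi-likelihood test, adjusted p under 0.05). An unadjusted p under 0.05 was found for 238 genes. Fth1 (ENSMUSG00000024661, chromosome 19, 9957911 to 9962462) had 45.8, 6.61 and 10.3 CPM in the fed and 127 and 110 CPM in the fasted libraries, and the groups do not overlap. The log2 ratio was 2.89 ± 0.444 (SE, adjusted p = 0.00454). The fed levels of Fth1 rested on few UMIs, so the gene could pass the filter on low counts through the fasted libraries, which favours higher fasted values. With at least 2 Sst UMIs Fth1 was again the gene that passed (2.75, adjusted p = 0.00769). Without fed replicate 2 the adjusted p was 0.124, and with Ebf1 at 12 or more it was 0.143.

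The same gene had 56.8, 15.3 and 28.4 CPM in the other Gad nuclei of the fed libraries and 137 and 156 CPM in those of the fasted ones, and the difference between the 2 changes did not pass (interaction of 0.555 on the log2 scale, adjusted p = 1.00). Taken alone, the fasting difference of Fth1 passed in the Nts/Tac2 nuclei (2.30 ± 0.321, adjusted p = 0.00847) and not in the other Gad nuclei (2.13 ± 0.413, adjusted p = 0.185). Glial nuclei had 194, 155 and 77.5 CPM in the fed and 296 and 734 CPM in the fasted libraries. In barcodes outside the bounds on genes and mitochondrial share it reached 6798, 2673 and 1765 CPM in the fed and 7133 and 5577 CPM in the fasted libraries, above each of these sets of nuclei. Mitochondrial transcripts were at 0.202, 0.0615 and 0.0470% of the UMIs of fed Sst/Ebf1 neurons and 0.305 and 0.173% of the fasted ones, where fed replicate 1 overlaps with the fasted libraries. Whether RNA from outside the nuclei has a part in the change of Fth1 was not tested.

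The 2 fasted libraries share a preparation batch with fed replicates 1 and 2 in turn. Within batches the ratio of fasted to fed Fth1 was 2.77 and 16.6. With the replicate number as a block, fed replicate 3 has no weight on the difference, which then rests on 2 pairs of libraries. The p-values of this fit, here and below, rest largely on a spread estimated across all genes. In it, 24 of 6808 genes passed (0.353%), 20 of them higher in the fasted neurons. Fth1 was among them, and 13 of the 20, such as Sgcz, Cdh13, Pde4b and Olfm3, had lower levels in the fed Sst/Ebf1 neurons than in the other fed Gad nuclei with no overlap, beside 1024 of all 6808 genes. A call for higher levels in the fasted neurons favours low fed values by itself. Between fed and fasted neurons, however, Sgcz, Cdh13 and Pde4b overlapped through fed replicate 3, the library without weight. Sgcz had 199, 142 and 746 CPM in the fed and 522 and 542 CPM in the fasted neurons, Cdh13 10.2, 16.5 and 80.0 against 183 and 51.0, and Pde4b 35.6, 31.4 and 111 against 251 and 83.7.

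Other genes stood apart between the groups without passing the quasi-likelihood test. The likelihood ratio test of edgeR, as used in the study, called 10 genes, among them Olfm3, Mt1, Rplp1, Spon1, Reln, Vwc2 and Alk, at adjusted p-values from 0.00437 to 0.0459. Olfm3, a secreted olfactomedin (chromosome 3, 114697712 to 114919372), had 25.5, 11.6 and 28.4 CPM in the fed and 113 and 61.4 CPM in the fasted libraries (log2 ratio 2.00 ± 0.411, adjusted p = 0.144). The metallothionein gene Mt1 had 30.6, 1.65 and 5.16 CPM against 63.5 and 47.1 (2.66 ± 0.618, adjusted p = 0.254). Both lay higher in the fasted libraries with no overlap, as did Rplp1, a protein of the ribosomal stalk (2.09 ± 0.443, adjusted p = 0.144), Spon1, an extracellular matrix protein (1.93 ± 0.452, adjusted p = 0.254), and Reln, the gene of reelin (2.96 ± 0.717, adjusted p = 0.257). As for Fth1, the fed levels of these genes rested on few UMIs, and passing the filter through the fasted libraries favours higher fasted values. The value of Olfm3 fell to 1.70 with at least 2 Sst UMIs (adjusted p = 0.379) and to 0.97 with Sst at 2 or more per 10000 (adjusted p = 0.999). Reln was at 2.11 with at least 2 Sst UMIs (adjusted p = 1.00) and at 4.25 without fed replicate 1 (adjusted p = 0.0212), and Mt1 at 4.00 without fed replicate 1 (adjusted p = 0.0110) and at 1.90 without fed replicate 2 (adjusted p = 0.439). With the block, Olfm3, Mt1, Rplp1 and Spon1 passed (adjusted p = 0.000277, 0.00908, 0.0220 and 0.00462).

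In the opposite direction, Vwc2, a secreted regulator of bone morphogenetic protein signalling (chromosome 11, 11064001 to 11218931), had 188, 210 and 240 CPM in the fed and 77.6 and 116 CPM in the fasted libraries (log2 ratio -1.11 ± 0.268, adjusted p = 0.257, and 0.0335 with the block). Tox, a transcription regulator, had 565, 258 and 354 CPM against 148 and 195 (-1.13 ± 0.285, adjusted p = 0.343, and 0.00225 with the block). Alk had 81.5, 31.4 and 106 CPM against 14.1 and 18.3 (-2.02 ± 0.475, adjusted p = 0.254), but with Ebf1 at 4 or more its log2 ratio was -0.29, and with equal nuclei and counts -3.93. All were lower in the fasted libraries with no overlap, as were Enox2 and Nwd2 (adjusted p = 0.412 and 0.543).

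**Figure D3:**
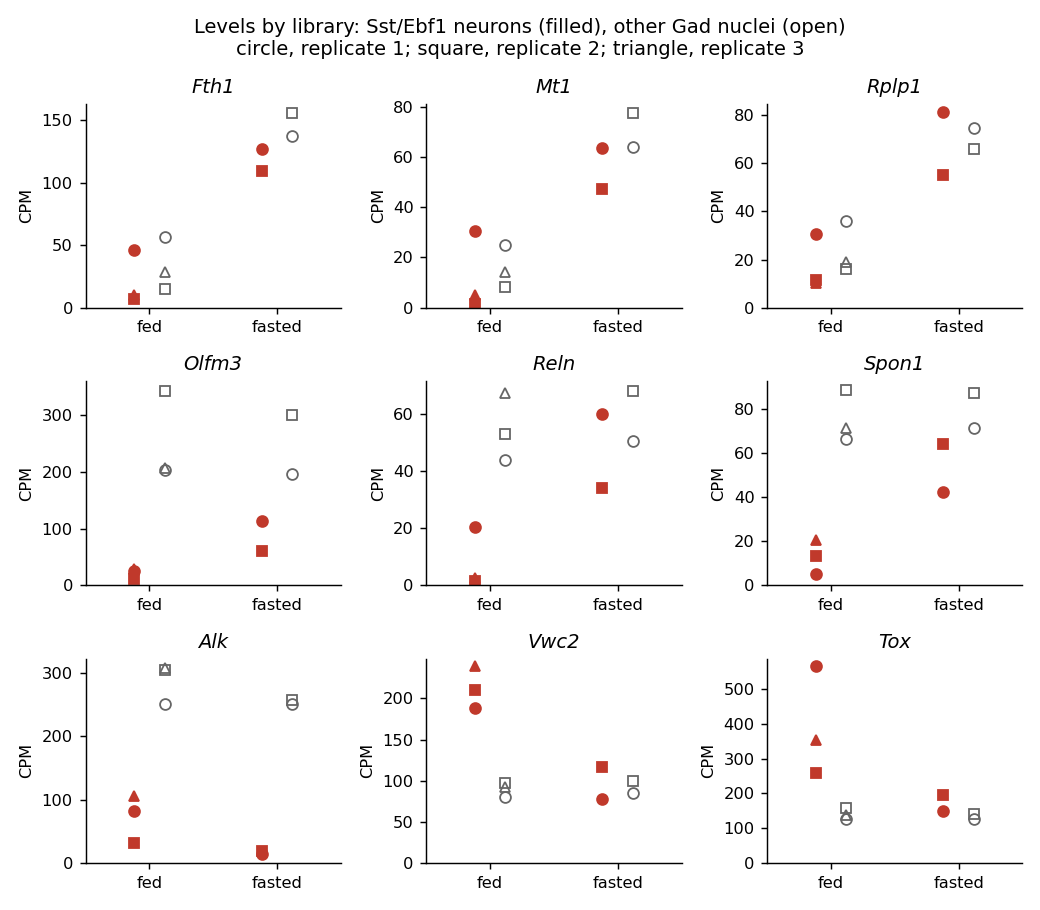
CPM per library in Sst/Ebf1 neurons (filled) and all other Gad nuclei (open) of fed and fasted mice for Fth1 and 8 genes with the next smallest p-values. Fth1, Mt1 and Rplp1 are higher in the fasted libraries in both sets of nuclei, whereas Olfm3, Reln and Spon1 are higher in the fasted Sst/Ebf1 neurons while the open points overlap.

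The lists of genes gave the following counts, beside 601 of all 5945 genes (10.1%) with both fasted libraries above every fed one, 447 (7.52%) with both below, and a median log2 ratio of -0.01 over all genes. Cytoplasmic ribosomal protein genes lay on the higher side, with 35 of 36 tested genes higher in the fasted neurons, 15 of them with no overlap, and a median log2 ratio of 0.91. Only 2 of the 84 genes listed reached 30 CPM in every fed library, so many could pass the filter on low counts through the fasted libraries. That favours higher fasted values among the 36, whose counts are a description, while the sums below use all 84. None of the 36 passed alone, and Rplp1 and Rps29 passed with the block. The 84 genes of the list summed to 1833, 1063 and 1105 CPM in the fed and 2851 and 2146 CPM in the fasted Sst/Ebf1 neurons. They summed to 1896, 1166 and 1386 against 2844 and 2756 CPM in the other Gad nuclei, and to 3143, 1938 and 1664 against 4755 and 11205 CPM in glia, so the fasted libraries were higher in all 3 sets. In the barcodes outside the bounds they summed to 110444, 45330 and 29844 against 94070 and 75292 CPM, which overlap, with fed replicate 1 the highest. The oligodendrocyte list, at 194, 129 and 121 against 219 and 199 CPM in the Sst/Ebf1 neurons, was higher in the fasted libraries too, and its part in the ribosomal protein levels was not tested. The most abundant gene, Rpl6, had 61.1, 41.3 and 72.3 CPM in the fed and 56.5 and 61.4 CPM in the fasted neurons, which overlap.

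Immediate-early genes, which neurons induce on activation, were scarce, with 2 of 25 passing the filter on low counts and neither passed. Fos had 0, 0 and 2.58 CPM in the fed and 0 and 13.1 CPM in the fasted libraries, Nr4a1, of lowest p, 25.5, 6.61 and 36.1 against 21.2 and 34.0 CPM, and Homer1, the most abundant, 122, 102 and 121 against 81.2 and 170. Of 20 glucocorticoid-induced genes 8 were tested, 4 lay higher with no overlap and none lower, and Mt1 passed with the block. The list summed to 1538, 1553 and 1306 CPM in the fed and 1496 and 1732 CPM in the fasted neurons, which overlap. In the other Gad nuclei it summed to 1174, 1218 and 1127 against 1381 and 1388 CPM, in glia to 1859, 2417 and 1313 against 2460 and 3667, and in the barcodes outside the bounds to 4496, 2648 and 1710 against 5978 and 5776, all higher in the fasted libraries. In the Sst/Ebf1 neurons the most abundant gene of the list, the mineralocorticoid receptor gene Nr3c2, had 998, 926 and 795 CPM against 685 and 831. It made up 906 of the fed mean sum of 1466 CPM, so the overlap of the sums in these neurons depends on this receptor gene. Of the 36 genes of insulin, FoxO and fasting responses, 20 were tested and 0 passed. Igf1r, of lowest p among them, had 148, 92.6 and 139 CPM against 191 and 225 (adjusted p = 0.838), and Insr, the insulin receptor gene, 173, 152 and 170 against 176 and 162.

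None of the other lists held a gene that passed the quasi-likelihood test without the block. Among 14 circadian clock genes tested 4 were higher and 1 was lower with no overlap, and Per2, of lowest p, had 10.2, 29.8 and 77.4 CPM against 14.1 and 23.5 (log2 ratio -1.05 ± 0.525), while Rora had 3010, 1930 and 2543 against 2576 and 2047. Of 36 actin and spine regulators tested 4 were higher and 1 was lower with no overlap. Nrxn3, a neurexin gene, had 7318, 9192 and 7357 against 6799 and 8454 CPM, and Dapk1, the gene of death-associated protein kinase 1, had 682, 708 and 620 against 960 and 842 CPM (0.40 ± 0.210, adjusted p = 1.00). The 15 respiratory chain genes tested had a median log2 ratio of 0.03, with Cox5b of lowest p (1.12 ± 0.644), and Ndufs4 averaged 80.9 ± 5.31 CPM in the fed libraries.

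Among 18 glutamate receptor genes tested, the kainate receptor gene Grik1 had 5.09, 23.1 and 25.8 CPM against 67.0 and 57.5 (log2 ratio 1.53 ± 0.411, adjusted p = 0.412, and 0.0404 with the block), and Grm7 3310, 4810 and 3503 against 3387 and 4156. Of 34 genes of voltage-gated channels and related proteins 5 were higher and 1 was lower with no overlap. Kcnn2 was of lowest p (0.83 ± 0.320), and Kcnip4 ranged from 6051 to 7981 CPM over all libraries. Of 36 guidance and adhesion genes 2 were higher and 3 lower with no overlap, Robo1 at 255, 177 and 315 against 441 and 420 CPM (0.79 ± 0.245, adjusted p = 0.625, and 0.00462 with the block) and Sema6d at -0.43 ± 0.183. The lists of GABA synapse, monoamine receptor, peptide, peptide receptor and transcription factor genes had median log2 ratios of 0.01, -0.24, -0.04, 0.09 and -0.07. Their genes of lowest p were Gabra3 (-0.73 ± 0.330), the nicotinic receptor gene Chrna7 (-0.86 ± 0.322), Pdyn (-0.82 ± 0.376), Igf1r and Foxp1 (-0.44 ± 0.266), and Gabrb1 had 1538, 1968 and 1753 against 1789 and 2081 CPM.

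A test of the difference itself was then made against the Nts/Tac2 nuclei, in which 31 of 7779 genes (0.399%) passed between fed and fasted. For 3 of 7904 genes (0.0380%) the fasting difference of the Sst/Ebf1 neurons differed from that of the Nts/Tac2 nuclei. Ldb2, a cofactor of LIM-domain transcription factors, had means of 79.1 CPM in fed and 167 in fasted Sst/Ebf1 neurons and of 126 and 59.3 in the Nts/Tac2 nuclei (interaction of 2.04 ± 0.336 on the log2 scale, adjusted p = 0.0334). Pitpnc1, a phosphatidylinositol transfer protein gene, behaved likewise (1.97 ± 0.360, adjusted p = 0.0458), and Vwc2 went the other way, from 213 to 97.0 CPM in the Sst/Ebf1 neurons and from 174 to 286 in the Nts/Tac2 nuclei (-1.83 ± 0.317, adjusted p = 0.0345). The peptidase gene Trhde and the cation channel gene Trpc7 had the next smallest p-values (adjusted p = 0.275 for both). Without fasted replicate 1, without fasted replicate 2, or with at least 2 Sst UMIs, 0 genes passed in edgeR (339, 370 and 332 at an unadjusted p under 0.05). DESeq2 called 0 (56 at an unadjusted p under 0.05), and 10 passed with the block.

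Against all other Gad nuclei the fasting difference differed for 19 of 12512 genes (0.152%), 16 with a positive and 3 with a negative interaction. All 16 had lower levels in the fed Sst/Ebf1 neurons than in the other fed nuclei with no overlap, beside 20.0% of all genes tested, a condition that a positive interaction itself favours. The fit tested 12512 genes, beside 5945 in the Sst/Ebf1 neurons alone, so genes scarce in these neurons could enter through the others. Among the 16, Megf11 had no UMI and Qrfpr 1 UMI in the fed Sst/Ebf1 neurons, so the count of 16 is a description. Olfm3 had the smallest p (2.07 ± 0.356, adjusted p = 5.79e-05), with means of 21.8 CPM in fed and 87.2 in fasted Sst/Ebf1 neurons beside 251 and 248 in the other Gad nuclei. Qrfpr followed, at 0, 1.65 and 0 CPM in the fed and 14.1 and 31.4 CPM in the fasted neurons, beside a fed mean of 52.4 in the other Gad nuclei. It is one of the 10 genes chosen as lowest in the fed neurons, so its call is not independent of that choice. Next came Pde4b, a cyclic AMP phosphodiesterase gene whose fed and fasted values overlapped (means of 59.4 and 167 CPM beside 757 and 689). Reln (8.20 and 47.0 beside 54.6 and 59.2) and Ldb2 (1.26 ± 0.248, adjusted p = 0.000930) came after it. Fed and fasted Sst/Ebf1 neurons did not overlap in 16 of the 19 genes, which the call itself favours. Of all 5945 genes tested between fed and fasted neurons, 601 (10.1%) lay higher and 447 (7.52%) lower with no overlap. The negative interactions were those of Vwc2 (-1.11 ± 0.236), Tox (-0.98 ± 0.214) and Alk (-1.73 ± 0.380).

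Beside these calls, the share of glial nuclei with an Sst UMI was highest in fasted replicate 2 (13.1%), whereas neurons with a single Sst UMI were most numerous in fasted replicate 1 (18, beside 2 in fasted replicate 2 and 7 in fed replicate 1), the shallowest library, where the level of the 10 low genes was highest too. These 10 genes were chosen as the lowest in the fed libraries, which by itself favours lower values there than in the fasted ones. The part of nuclei of other types within the fasted neurons was not tested. With at least 2 Sst UMIs, the 10 low genes were at 2.66, 2.12 and 4.68% of the other nuclei in the fed and at 12.0 and 10.1% in the fasted libraries. With Sst at 2 or more per 10000 they were at 4.64, 1.69 and 5.12% against 12.8 and 4.86%, and the groups overlapped. With Ebf1 at 12 or more per 10000 they were at 1.77, 2.78 and 4.69% against 20.4 and 10.7%, with no overlap. Of the 19 genes, all kept their direction with at least 2 Sst UMIs, and 6 of them passed (Qrfpr, Olfm3, Tox, Ldb2, Spon1 and Vwc2). Qrfpr, one of the low genes chosen on the fed libraries, is favoured by that choice here and in the next count. Without fasted replicate 1, 3 of the 19 passed (Qrfpr, Ldb2 and Spon1) among 5 genes, without fed replicate 1 there were 11 genes, without fed replicate 3 there were 31, and DESeq2 called Ldb2 alone.

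**Figure D4:**
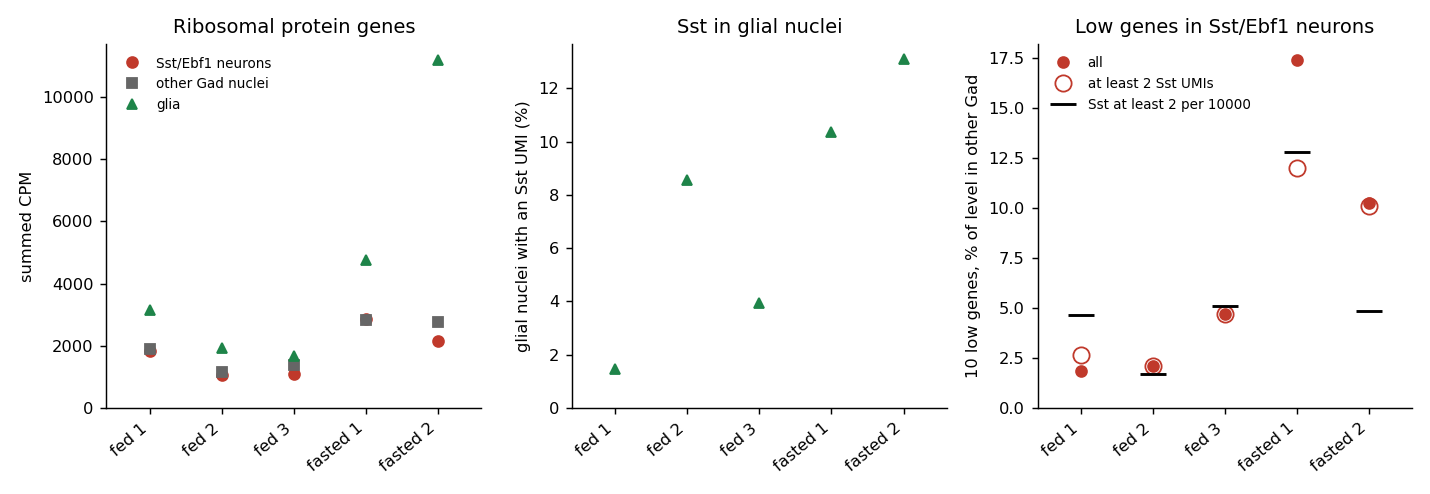
Measures by library: the summed CPM of ribosomal protein genes in Sst/Ebf1 neurons, other Gad nuclei and glia, the share of glial nuclei with an Sst UMI, and the summed level of the 10 low genes in Sst/Ebf1 neurons as a percent of that in other Gad nuclei, for all neurons, for those with at least 2 Sst UMIs and for those with Sst at 2 or more per 10000. Both fasted libraries lie above the 3 fed ones in the glial Sst share (10.3 and 13.1%, beside at most 8.57%, whose exact interval holds both) and, for all neurons, in the low genes (17.4 and 10.3%, beside at most 4.68%), an order favoured by the choice of these genes as the lowest in the fed libraries, whereas with Sst at 2 or more per 10000 fasted replicate 2 (4.86%) lies within the fed range.

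**Figure D5:**
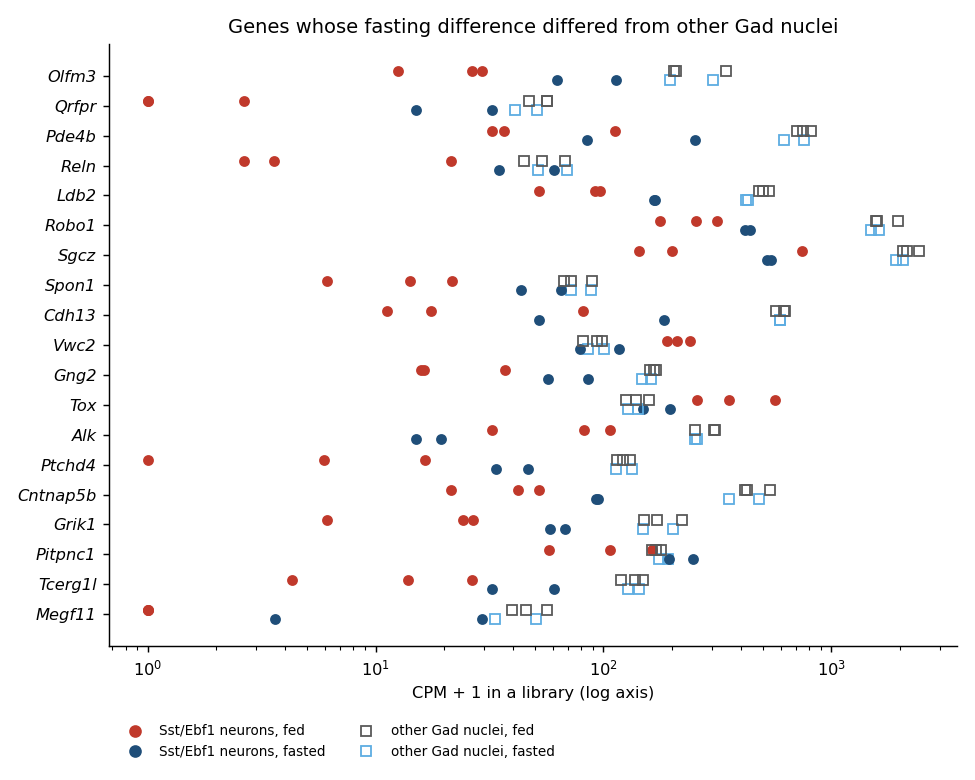
CPM + 1 (log axis) per library of the 19 genes whose fasting difference in Sst/Ebf1 neurons differed from that in all other Gad nuclei, with circles for the Sst/Ebf1 neurons and squares for the others; a value of 1 stands for 0 UMIs. The fed circles of the 16 genes with a positive interaction lie below the squares, and those of Vwc2 and Tox above them.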

How the data were processed

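Raw UMI counts per gene and barcode, as deposited by the authors, were used for all 5 libraries and 22532 genes. The authors prepared 3′ libraries with 10x Chromium v3.1 chemistry and aligned them, with introns included, to GRCm39 extended by Cre and mCherry. The file headers name Cell Ranger 5.0.0, whereas the submitters' processing notes name Cell Ranger 2.1.1 and mm10. The neurons and gene lists were chosen with earlier results of these data known.

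UMIs of the selected nuclei were summed per library (196375 to 764988) and tested with edgeR 4.0.16 in R 4.3.3 by the quasi-likelihood test with TMM, filterByExpr and Benjamini-Hochberg adjustment at 0.05. The 12 genes of the selection, mitochondrial genes, Cre and mCherry were left out of tests. Differences between sets of nuclei were tested as an interaction with libraries as blocks. The likelihood ratio test, which the study used, DESeq2 1.42.0, the replicate block, no filter, other thresholds, equal nuclei and counts (21 nuclei and 127018 counts per library), doublets removed and leaving out each library were alternatives, and those on Sst UMIs were added after the data had been seen. Scrublet, run through scanpy 1.11.5, marked 70 of 7161 nuclei as doublets (0.978%), which were not removed. A supplementary legend of the study places replicates 1 in one preparation batch, replicates 2 in another and a further fed library, by elimination fed replicate 3, in its own, so the numbers pair the libraries. Deviations from the group means of same-numbered libraries correlated at 0.0889 and 0.249 across 5945 genes, which are not independent. With 2 fasted libraries, the crossed pairs take the same values with the opposite sign by construction. Replicates 1 were also the shallowest of their groups and replicates 2 the deepest, so these values cannot tell batch from depth.

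Named genes were the 20 highest and 10 lowest fed ratios among genes with at least 30 CPM, all genes that passed, the 5 next smallest p-values in each direction, the 5 smallest of each interaction, the most abundant and lowest-p gene of each list, and a fixed set of CeA markers. Other genes, among them those that passed only with the block, were named after their values had been seen. Some genes that these rules name are not reported here. The tests were checked on simulated data. Gene coordinates are from GENCODE vM39, matched by gene ID.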

Additional observations from a re-analysis of the deposited data

Results flagged for a closer look

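The fasting difference of Sst/Ebf1 neurons differed from that of the Nts/Tac2 nuclei for 3 genes (edgeR interaction, adjusted p under 0.05), with interactions on the log2 scale of 2.04 for Ldb2, -1.83 for Vwc2 and 1.97 for Pitpnc1. It differed from that of all other Gad nuclei for 19 genes, the first 5 by p-value being Olfm3 (2.07), Qrfpr (5.15), Pde4b (1.44), Reln (2.91) and Ldb2 (1.26). The value of Qrfpr rests on 1 UMI in the fed neurons and depends on the prior count of the fit. Of the marker outside the main measurement, 17 Sst/Ebf1 neurons of fed replicate 3 had an mCherry UMI, and none of the other 4 libraries did. Groups of 2 and 3 libraries are too small for a test of outlying libraries.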

How the results depend on the processing

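The count of 1 gene between fed and fasted Sst/Ebf1 neurons was 24 with the replicate block, 10 with the likelihood ratio test, 12 without the filter on low counts, and in edgeR 0 with equal nuclei and counts or with Ebf1 at 12 or more (129 and 162 genes at an unadjusted p under 0.05). It was 1 to 7 when 1 library was left out: 6 without fed replicate 1, 1 without fed replicate 2 (Alk in place of Fth1), 2 without fed replicate 3, 3 without fasted replicate 1 and 7 without fasted replicate 2. Of the 3 genes of the interaction with Nts/Tac2 nuclei, counts became 10 with the block, 11 with the likelihood ratio test, 0 with DESeq2, 13 without the filter, 0 with at least 2 Sst UMIs, and 0 to 2 without 1 library. The 19 genes of the interaction with other Gad nuclei became 30 with the block, 1 with DESeq2, 6 with at least 2 Sst UMIs, and 5 to 31 without 1 library. Of the 19, 16 were also called with the block. The difference in the share of neurons (0.212 percentage points, fasted minus fed) turned to -0.187 with at least 2 Sst UMIs and to -0.228 at 4000 UMIs, and ranged from -0.112 to 0.799 without 1 library. The cause was not tested for any of these. Fth1 kept its direction in all 14 alternatives that tested it, with log2 ratios of 2.33 to 3.78, and passed in 12 of them. It was not tested with equal nuclei and counts, where fewer genes entered. The mean fed ratios of the 20 leading and 10 low genes kept their direction without each fed library and at 4000 UMIs. With 21 to 45 neurons per library, genes with few UMIs are not resolved.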

Other observations

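Beyond the genes named above, the fit with the replicate block called Noct, the gene of nocturnin, at means of 49.0 CPM in fed and 80.5 in fasted Sst/Ebf1 neurons (log2 ratio 1.38 ± 0.363, adjusted p = 0.0404), while the other Gad nuclei had 41.4 and 44.3. Chsy3, an enzyme of chondroitin sulfate synthesis, fell from 1374 to 957 CPM (-0.69 ± 0.174, adjusted p = 0.0258), with 584 and 508 in the other nuclei, and Cpne4, a calcium-dependent membrane-binding protein, fell from 207 to 117 (-0.999 ± 0.256, adjusted p = 0.0335), with 225 and 159 in the other nuclei. The fed means include fed replicate 3, which has no weight on these log2 ratios, so means and ratios need not match, as for Noct (fed SD of 31.8 CPM). These adjusted p-values are from edgeR with the block, the genes were chosen after their values had been seen, and none passed without the block.

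Nuclei that met one threshold of the pair and not the other were more numerous than the Sst/Ebf1 neurons. There were 408 Gad nuclei with Ebf1 but below the Sst threshold (53, 52 and 94 in the fed and 95 and 114 in the fasted libraries) and 261 with Sst but below the Ebf1 threshold (25, 25 and 33, and 95 and 83). In fed libraries the second set averaged 75.1 ± 61.3 CPM of Npy (SD, n = 3, from 4.49 to 115) and 28.9 ± 9.49 of Lhx6 (from 18.0 to 35.0), beside means of 0 and 0.551 in the Sst/Ebf1 neurons.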
